A study of Mus musculus with 5 samples.

Results

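H3K14ac counts were examined at 9 mouse genes that encode receptors by which blood stem cells reach and hold their place in the bone marrow niche: Cxcr4, Itga4, Itgb1, Itga6, Itgal, Cd44, Selplg, S1pr1 and Robo4. The genes were taken by name, though earlier results of these data were known when they were chosen. They were matched by Entrez identifier to 9 of the 27179 genes in the deposited count tables. H3K14ac is the acetylation of lysine 14 of histone H3, a mark found at active genes. The assay was CUT&Tag: an antibody brings the Tn5 transposase to the mark, and the DNA beside it is cut and tagged.

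LSK cells, the bone marrow fraction without lineage markers that carries Sca-1 and Kit and holds stem and early progenitor cells, were isolated by FACS from male C57BL/6 mice. The labels also call the source haematopoietic stem cells. All 4 libraries came from mice treated with poly(I:C), which induces Mx1-cre. The Mx1 promoter responds to interferon and is active in other tissues besides blood, so recombination in these mice need not be limited to blood cells. The 2 control libraries have the genotype Hbo1def/+; T/+ and the 2 knockout libraries Hbo1def/def; T/+, so the controls carry 1 def allele too. The labels do not spell out T and give no age. Hbo1, also named Kat7, encodes a histone acetyltransferase that acetylates H3K14. The question was how its loss changes the distribution of the mark. A library of control cells made with an antibody to HBO1 was not analysed here.

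Stem cells stay in the marrow because CXCR4 on their surface senses CXCL12 made by stromal cells, and because integrins grip VCAM1, laminins and ICAMs on niche cells. Integrins are pairs of an alpha and a beta subunit that bind firmly once talin and kindlin join them to actin. Cells that arrive from the blood first roll on selectins through glycosylated ligands such as PSGL-1 (Selplg) and CD44, while S1P receptors draw cells towards the blood and ROBO4 supports retention in the niche.

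Reads were counted by the authors over the 5 kb before each gene's start (upstream), over the gene body, and over the 5 kb after its end (downstream). Gene body totals were 12386891 and 10572534 in the controls and 4723549 and 6031189 in the knockouts. Upstream totals lay between 869859 and 1164409, and downstream totals between 677213 and 1260351. All 8 LSK marker genes had counts, with a summed upstream density of 98.1 and 77.6 CPM per kb in the controls and 117 and 102 in the knockouts, and 16.5 and 15.2 against 15.5 and 14.7 over gene bodies. They did not move together. Upstream, both knockouts lay above both controls for 3 (Flt3, Meis1 and Cd34) and below for 3 (Ly6a, Slamf1 and Hlf). Over gene bodies they lay above for 1 and below for 4. Of all genes tested, 37.8% lay above and 39.9% below upstream, and 40.6% and 39.4% over gene bodies. CPM, the usual count relative to the library total, was scaled by the TMM method within a region class. A rise or fall is therefore relative to the other genes of a library. Absolute gain or loss of the mark cannot be read from it. Kat7 had 45.1 and 40.6 upstream CPM in the controls and 19.3 and 24.4 in the knockouts (log2 fold change -0.97 ± 0.47, adjusted p = 0.0872), but its gene body rose (1.06 ± 0.32, adjusted p = 0.00668). Counts of a histone mark over whole windows do not check the deletion. Whether each library is a separate mouse is not stated, and p-values therefore reflect no more than how these samples vary, possibly for technical reasons. In bulk cells, fewer cells of a type and less mark per cell cannot be told apart.

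The DNA in front of the genes differed in CpG content, which is shown because the share of all genes that rose or fell differed with it. At the start sites (a window of 1000 bp), the ratio of observed to expected CpG was 0.93 for Itgb1, 0.89 for Itga6, 0.62 for Cxcr4, 0.58 for S1pr1, 0.47 for Itga4, 0.34 for Cd44, 0.24 for Selplg, 0.23 for Itgal and 0.16 for Robo4. Among 9338 genes tested upstream with a ratio of at least 0.6, 43.4% rose in the knockout and 3.13% fell. Among 12473 genes below it, 10.8% rose and 22.2% fell. From the RefSeq promoter table (GRCm38.p6), which held 5 of the 9 genes, the bases before the annotated start are given 5′ to 3′ for 4 of them, with CG dinucleotides in capitals. There are 250 for Cxcr4, Itgb1 and Itga4. The window of the table for Robo4 reaches 70 bases into the annotated gene, so only the first 180 are given. They are Cxcr4 (chr1:128592300-128592549, minus strand), Itgb1 (chr8:128685404-128685653, plus), Itga4 (chr2:79255176-79255425, plus) and Robo4 (chr9:37401722-37401901, plus). The first 3 stand for genes with higher counts in the knockout and Robo4 for the one that fell upstream.
Cxcr4: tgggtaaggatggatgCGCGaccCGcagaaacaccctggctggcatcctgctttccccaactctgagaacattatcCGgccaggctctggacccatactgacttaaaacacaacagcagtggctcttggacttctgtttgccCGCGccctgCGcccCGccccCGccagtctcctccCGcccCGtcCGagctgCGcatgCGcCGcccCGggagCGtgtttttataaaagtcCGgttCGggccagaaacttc
Itgb1: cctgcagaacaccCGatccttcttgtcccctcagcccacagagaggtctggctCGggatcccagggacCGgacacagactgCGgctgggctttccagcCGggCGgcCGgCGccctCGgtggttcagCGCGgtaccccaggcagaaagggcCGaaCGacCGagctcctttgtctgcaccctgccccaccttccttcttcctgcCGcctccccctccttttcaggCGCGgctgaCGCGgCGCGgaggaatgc
Itga4: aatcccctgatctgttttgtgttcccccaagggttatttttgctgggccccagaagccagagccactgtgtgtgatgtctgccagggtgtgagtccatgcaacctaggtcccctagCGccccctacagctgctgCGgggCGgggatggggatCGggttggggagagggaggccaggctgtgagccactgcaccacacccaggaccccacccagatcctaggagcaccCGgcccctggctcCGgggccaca
Robo4: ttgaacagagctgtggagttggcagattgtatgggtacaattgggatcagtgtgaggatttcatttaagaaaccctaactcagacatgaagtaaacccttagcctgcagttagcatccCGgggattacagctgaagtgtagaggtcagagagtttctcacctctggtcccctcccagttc

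Over the whole windows of 250 bases in the table there were 19 CpGs for Cxcr4, 21 for Itgb1, 6 for Itga4 and 2 for Robo4 (1 of them in the printed bases). Cd44, in the table but not printed, had 5. The median of 32851 promoters of this length was 6, and 80.3% had fewer than Cxcr4, 83.7% fewer than Itgb1 and 18.8% fewer than Robo4. In the same windows, on both strands, the GC box GGGCGG was found 3 times before Cxcr4 and 1 time each before Itga4 and Itgb1, with no match for Cd44 or Robo4. It occurs in 32.7% of all promoters. The ETS core AGGAAG matched 2 times before Itgb1, 3 times before Cd44 and 1 time before Robo4 (29.5% of promoters). The RUNX motif TGTGGT matched 1 time before Itga4 (14% of promoters), the GATA motif GATAAG 1 time before Cd44 (6.55%), CCAAT 1 time before Robo4 (33.8%), and TGACTCA before none of the 5 (4.46%). A match is a string of letters in this window, not a bound site. Itga6, Itgal, Selplg and S1pr1 were not in the promoter table.

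Upstream, Itga4, Itgb1 and Itgal rose in the knockout, Robo4 fell, and the other 5 genes did not pass the test (edgeR quasi-likelihood, Benjamini-Hochberg adjusted p at most 0.05 over all genes). Of 23200 genes tested, 24% rose and 14.3% fell (38.3% in either direction). At an unadjusted p under 0.05 there were 6 of the 9. The split moved with the scaling: 1 rose and 1 fell with library totals, 6 rose and none fell with pooled totals, 3 rose and none fell with scaling on olfactory and vomeronasal receptor genes (receptor-gene scaling), and none rose and 1 fell with the GC correction. The median log2 fold change of the 9 genes was 1.09, against -0.09 over all genes tested. It was 0.58 without knockout 1, 1.71 with pooled totals and 2.19 with receptor-gene scaling. The median of all genes under these settings was 0.02, 0.46 and 0.83. Over gene bodies, Cxcr4, Itga4 and Cd44 rose and none of the 8 tested genes fell (4 had an unadjusted p under 0.05, none of them lower). Unscaled reads there were 480 and 424 in the controls and 524 and 469 in the knockouts for Itga4. For Cd44 they were 1106 and 1015 against 1313 and 985. Selplg had too few counts to be tested. Here 23.1% of 21393 genes rose and 15.2% fell (38.3% in either direction). The medians were 0.75 for the 8 genes and 0.02 for all. They were 0.43 and 0.05 without knockout 1, and 1.43 and 0.67 with receptor-gene scaling. Downstream, only Selplg of the 9 rose and none fell, where 10.8% of 21566 genes rose and 2.29% fell (13.1% in either direction), with medians of 0.04 and -0.03. The downstream median of the 9 ran from -0.11 with library totals to 0.36 with receptor-gene scaling, and that of all genes moved the same way. Cxcr4, Selplg and Robo4, the last lower, were the 3 genes at an unadjusted p under 0.05 there. Both knockout libraries lay above both controls for 6 of 9 genes upstream, 6 of 8 over gene bodies and 3 of 9 downstream, against 37.8%, 40.6% and 29.9% of all genes tested. For Robo4 both lay below both controls in all 3 regions (39.9%, 39.4% and 32.7% of all genes).

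**Figure D1:**
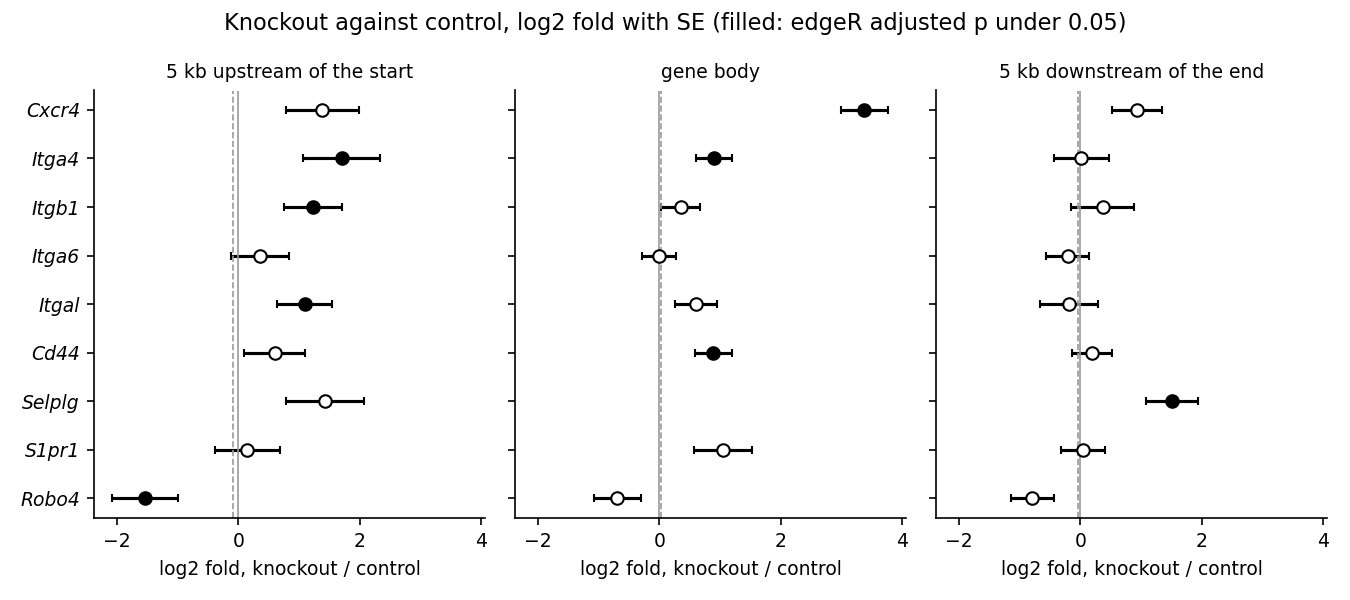
Log2 fold change of H3K14ac counts (knockout against control) for the 9 genes upstream, over the gene body and downstream. Bars are standard errors, filled points passed the test, and the dashed line is the median of all genes tested (-0.09, 0.02 and -0.03). Cxcr4 over its gene body stands highest at 3.38, and Robo4 lies to the negative side in each region.

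Cxcr4 (chr1:128588199-128592299, minus strand, a gene of 4101 bp) encodes the CXCL12 receptor and showed the largest change of the 9 genes. Its gene body held 4.84 and 5.64 CPM in the controls (49 and 57 reads) and 78.2 and 31.5 CPM in the knockouts (423 and 211 reads). The groups did not overlap, and knockout 1 was the higher of the knockouts. Mean CPM was 5.24 ± 0.57 (SD, n = 2) in controls and 54.8 ± 33.1 in knockouts, and the gene body rose by 3.38 ± 0.39 on the log2 scale (adjusted p = 1.5e-10). That fold change lay above those of 98.1% of the gene bodies tested. The call held in the 16 alternatives run, with log2 fold changes from 2.61 without knockout 1 to 4.1 with receptor-gene scaling.

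Beside the gene, the difference was smaller. The upstream window of Cxcr4 held 64.2 and 57.2 CPM in the controls and 208 and 107 in the knockouts (log2 fold change 1.38 ± 0.6, adjusted p = 0.0564). The downstream window held 58.7 and 61.4 against 147 and 83.1 (0.93 ± 0.41, adjusted p = 0.155). Both knockouts were above both controls in each window, though neither passed the test. Without knockout 2 the log2 fold changes were 1.91 upstream and 1.39 downstream, and without knockout 1 the upstream value was 0.86. With no library left out, the upstream window passed in 6 alternatives. These include the crossed block (control 1 paired with knockout 2), which was chosen after seeing the data. In it 51.2% of all genes passed, against 38.3% in the fit reported. The share of Cxcr4 reads that lay in the gene body was 24.7% (95% Wilson interval 19.3 to 31.2) and 28.1% (22.3 to 34.6) in the controls, and 61.8% (58.1 to 65.3) and 56.9% (51.8 to 61.8) in the knockouts. These shares need no scaling between libraries, and the exact two-sided permutation test over 6 assignments gave p = 0.333, the smallest it can give. Intervals cover counting error only, and would be too narrow if PCR copies of a fragment were counted as separate reads, which is not stated. Mature blood cells also carry CXCR4, although sorting for LSK cells removes cells with lineage markers. The summed density of 4 granulocyte and monocyte markers was 17.1 and 12.5 CPM per kb over gene bodies in the controls and 25.7 and 15.3 in the knockouts, and 68.4 and 66.8 against 64.1 and 55.4 upstream. Over gene bodies the knockouts were above both controls for 1 of the 4 (S100a9) and below for 1 (Ly6g), against 40.6% and 39.4% of all genes. Upstream they were above for none and below for 2 (Ly6g and Csf1r), against 37.8% and 39.9%. That of 4 B cell markers was 4.45 and 4.25 against 3.37 and 3.64 over gene bodies, with Ms4a1 at 0 counts, and 49.8 and 40.3 against 25 and 35.7 upstream. Both knockouts lay below both controls for 2 of the 4 B cell markers in each of these regions, and above for 1 over gene bodies. The part of either marker set in the Cxcr4 result was not tested.

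S1pr1 (chr3:115710433-115715055, minus strand, 4623 bp), the sphingosine 1-phosphate receptor that leads cells out of tissue towards blood, is as short as Cxcr4 and passed in no region. Its upstream window held 92.9 and 67.1 CPM in the controls and 102 and 75.3 in the knockouts, so the groups overlapped (log2 fold change 0.15 ± 0.54, adjusted p = 0.834). The gene body held 5.43 and 5.44 CPM against 13.9 and 8.8, with both knockouts above both controls (1.05 ± 0.48, adjusted p = 0.0702). It passed with library totals, totals pooled over the regions (1.27, adjusted p = 0.0418), a mean count of at least 50 and the crossed block. It passed in no other fit of all libraries. With the crossed block 56.3% of all gene bodies tested passed. Without knockout 2 the log2 fold change was 1.38. Downstream, the values were 51.7 and 33.5 against 41 and 46.2 CPM (0.04 ± 0.36, adjusted p = 0.955), and the knockouts lay between the controls.

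Itga4 (chr2:79255426-79333114, plus strand) encodes the alpha subunit of VLA-4, the integrin that binds VCAM1 and fibronectin. It was the only gene of the 9 that rose both upstream and over the gene body. Upstream, it held 69.4 and 48.9 CPM in the controls and 280 and 105 in the knockouts (1.70 ± 0.64, adjusted p = 0.0268). Its gene body held 47.4 and 42 CPM against 96.9 and 69.9 (0.90 ± 0.29, adjusted p = 0.0127). Groups did not overlap in either region, and knockout 1 was highest in both. The downstream window, 45.4 and 32.7 CPM in the controls and 16.8 and 59.3 in the knockouts, had the knockouts outside the controls on either side (0.02 ± 0.45, adjusted p = 0.98). All of that window and 624 bp of the gene body lie in Cerkl on the other strand, whose reads CUT&Tag cannot set apart. Cerkl passed in no region (gene body -0.49 ± 0.29, adjusted p = 0.164). Without control 1, control 2 or knockout 1 neither Itga4 call was kept, with log2 fold changes of 1.97, 1.47 and 0.87 upstream and 0.99, 0.81 and 0.67 over the gene body. The upstream call was also lost with receptor-gene scaling (2.83, adjusted p = 0.061) and with a GC correction (1.38, adjusted p = 0.0634). With the replicate number as a block, neither Itga4 call was kept (1.56 upstream and 0.88 over the gene body).

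Itgb1 (chr8:128685654-128733579, plus strand) encodes the beta subunit that pairs with the products of Itga4 and Itga6. Its upstream window held 24.3 and 29.8 CPM in the controls and 73.9 and 53.2 in the knockouts, with no overlap (1.23 ± 0.47, adjusted p = 0.028). The gene body held 27.7 and 32.5 CPM against 39.6 and 37.3, which also did not overlap but did not pass the test (0.35 ± 0.32, adjusted p = 0.375). Downstream, 11 and 28.7 CPM in the controls overlapped 18.6 and 31.7 in the knockouts (0.37 ± 0.52, adjusted p = 0.67). The upstream call was lost without control 1 (1.09), control 2 (1.38) or knockout 1 (1.00). It was also lost with library totals (1.01), the DESeq2 Wald test (1.32), the GC correction (0.93) and the replicate number as a block (1.21).

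Itga6 (chr2:71786886-71858427, plus strand), the laminin-binding alpha subunit, passed in no region. Its gene body held 91.5 and 89.4 CPM in the controls and 97.5 and 82 in the knockouts, so the controls lay between the knockouts (-0.01 ± 0.28, adjusted p = 0.979). The direction there turned positive with library totals (0.34), pooled totals (0.21) and receptor-gene scaling (0.66). Upstream, 23.4 and 24.9 CPM stood against 35.2 and 26.6 (0.35 ± 0.48, adjusted p = 0.556), and downstream 43 and 49.5 against 44.7 and 35.6 (-0.21 ± 0.35, adjusted p = 0.72). The knockouts were higher than both controls only in the upstream window, at between 24 and 31 reads a library. Its start site is nearly as rich in CpG as that of Itgb1.

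Itgal (chr7:127296139-127335137, plus strand) encodes the alpha subunit of LFA-1, which binds ICAMs. Upstream, it held 27.8 and 18.2 CPM in the controls and 71.6 and 26.6 in the knockouts, and passed the test although knockout 2 lay below control 1 (1.09 ± 0.46, adjusted p = 0.0482). The rise rested on knockout 1: without it the log2 fold change was 0.25 (adjusted p = 0.712). The call was also lost without control 1 (1.42) or control 2 (0.82). It was lost too with library totals (0.86), the GC correction (0.92) and the replicate number as a block (0.99). The DESeq2 Wald test (1.2), another quasi-likelihood variant (1.09) and limma-trend (0.90) did not keep it either. Its gene body held 16.5 and 23.9 CPM against 36.4 and 25.2 (0.60 ± 0.35, adjusted p = 0.156), with the lower knockout just above the higher control. Without knockout 2 the log2 fold change of the gene body was 0.88. Downstream values of 17.2 and 24.7 CPM in the controls enclosed 18.6 and 18.5 in the knockouts (-0.18 ± 0.48, adjusted p = 0.84).

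Cd44 (chr2:102811141-102901669, minus strand), a hyaluronan receptor and a carrier of selectin ligands, is the longest of the 9 genes and had the most reads. Its gene body held 109 and 100 CPM in the controls and 243 and 147 in the knockouts, with no overlap, and rose by 0.89 ± 0.3 on the log2 scale (adjusted p = 0.0145). Without control 1, control 2 or knockout 1 the call was not kept (0.96, 0.83 and 0.51). Nor was it kept with the replicate number as a block. Upstream, the knockouts at 79.6 and 74.2 CPM were above the controls at 49.5 and 52.2 but did not pass (0.60 ± 0.5, adjusted p = 0.326). The upstream window passed with pooled totals (1.16, adjusted p = 0.0489) and receptor-gene scaling (1.56, adjusted p = 0.0451). Downstream, 48.5 and 43.9 CPM stood against 52.2 and 54.1 (0.20 ± 0.33, adjusted p = 0.724).

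Selplg (chr5:113817798-113832528, minus strand) encodes PSGL-1, the main ligand of P-selectin, and its reads lay almost wholly outside the counted gene body. The gene body held 6 and 6 reads in the controls and 3 and 2 in the knockouts and was not tested. Of 2608 genes within 20% of its length, between 7.13% and 8.28% had fewer reads in a given library, and their median was 62 to 80. Deposited and annotated lengths differ for this gene (12704 and 14731 bp), so the counted body may begin or end elsewhere than the RefSeq gene. The lengths also differ for Itga6 (69676 and 71542 bp) and, by less, for Itgal, Cd44 and Robo4. Upstream, it held 73.8 and 65.5 CPM in the controls and 233 and 143 in the knockouts (1.43 ± 0.64, adjusted p = 0.0632). The groups did not overlap. The window passed with pooled totals, the DESeq2 Wald test (1.53, adjusted p = 0.016), limma-trend, a mean count of at least 50 and the crossed block. It passed in no other fit of all libraries. With the crossed block 51.2% of all genes passed. The log2 fold change was 1.88 without knockout 2 and 1.07 without knockout 1. Downstream, where 12.5 and 27.1 CPM in the controls stood below 72.7 and 42.2 in the knockouts, Selplg rose by 1.51 ± 0.43 (adjusted p = 0.0274). That call was lost in 8 alternatives, among them without control 1 (1.06), without knockout 1 (1.10) and with the GC correction (0.94). An annotated lncRNA, Gm42004, and a pseudogene, Gm19931, overlap this window and are not rows of the tables.

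Robo4 (chr9:37401902-37414023, plus strand), a Slit receptor of endothelial cells and blood stem cells, was the only gene of the 9 that fell. Its upstream window held 130 and 97.8 CPM in the controls and 26.1 and 52.1 in the knockouts (150 and 118 reads against 23 and 47). The groups did not overlap, and the log2 fold change was -1.54 ± 0.54 (adjusted p = 0.0175). The gene body held 22.9 and 20 CPM against 13.5 and 13.1 (-0.69 ± 0.38, adjusted p = 0.141), and the downstream window 94.7 and 72.6 against 44.7 and 51.4 (-0.79 ± 0.36, adjusted p = 0.161). In both, the knockouts lay below the controls without passing the test; with the GC correction both passed (-0.92 and -1.19). The upstream call was lost without control 1 (-1.32), control 2 (-1.73) or knockout 1 (-1.09), and with the replicate number as a block (-1.59). It was also lost with pooled totals (-0.99, adjusted p = 0.113) and with receptor-gene scaling (-0.66, adjusted p = 0.288). Robo3, which overlaps 2979 bp of the downstream window, passed in no region (gene body -0.07 ± 0.35, adjusted p = 0.894).

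Robo4 is also an endothelial gene, and the summed density of endothelial and stromal markers was lower in the knockout libraries as well. The summed upstream density of Cdh5, Kdr, Col1a1 and Pdgfra was 44.4 and 37.8 CPM per kb in the controls and 23.9 and 26.4 in the knockouts. Over gene bodies it was 8.46 and 6.64 against 4.31 and 5.33. Both knockouts lay below both controls for 3 of the 4 in each region, as they did for 39.9% of all genes upstream and 39.4% over gene bodies. The exceptions were Pdgfra upstream (2.6 and 3.65 against 3.64 and 2.88) and Col1a1 over the gene body (1.08 and 0.952 against 1.27 and 0.975). None of the 4 was at 0 in a library. Their part in the Robo4 result was not tested.

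**Figure D2:**
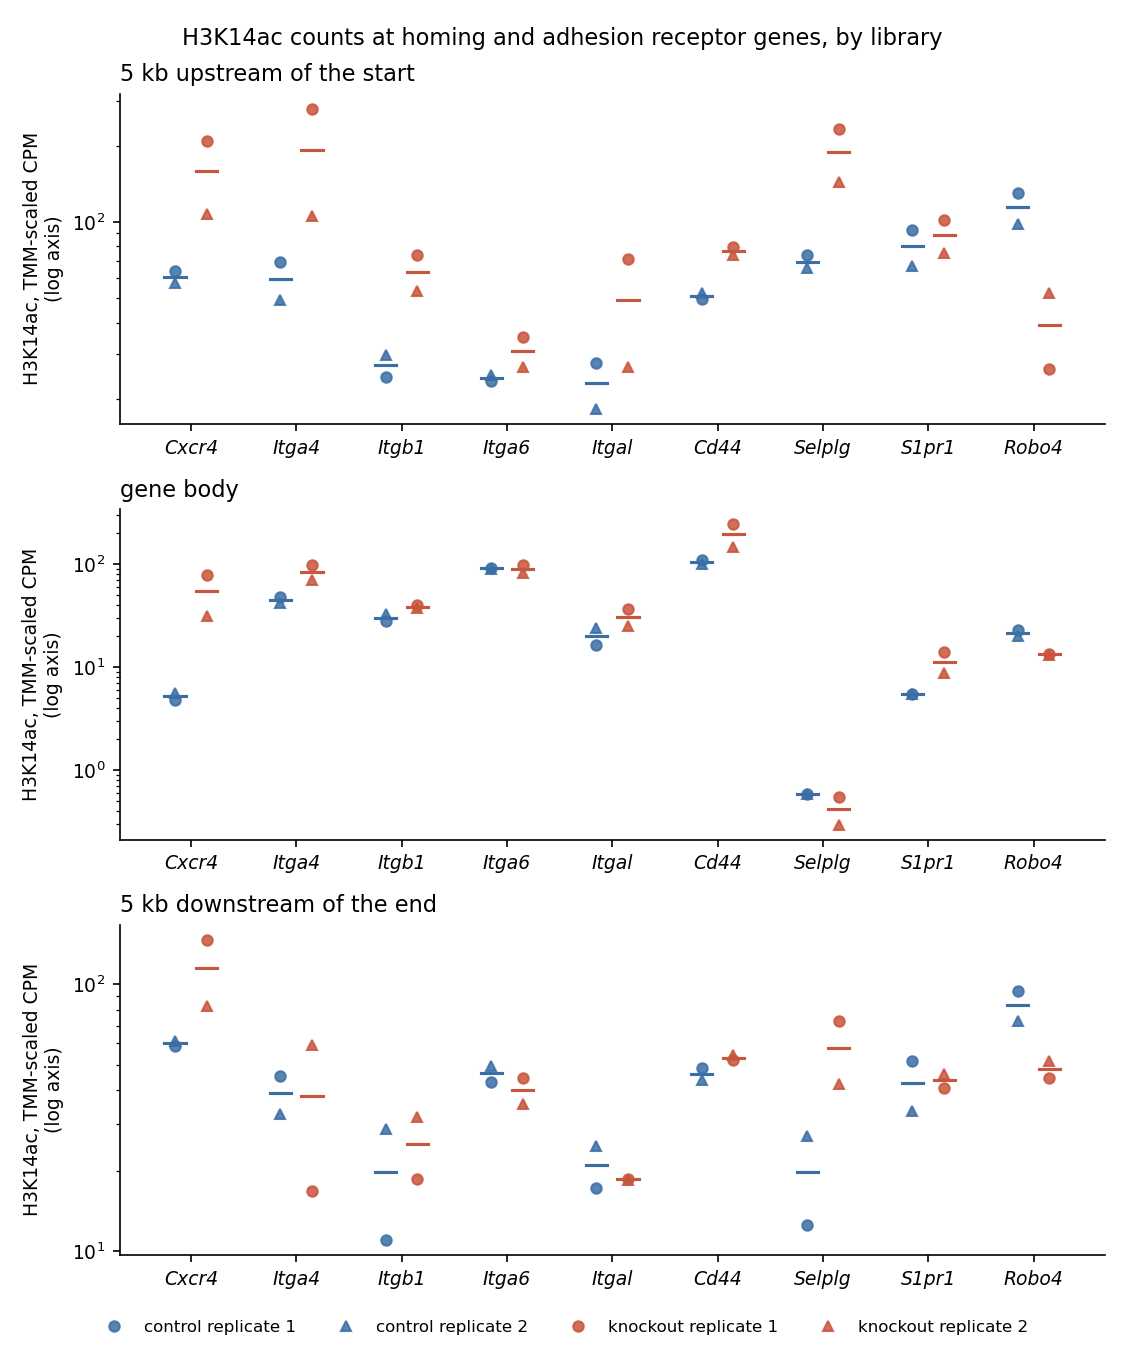
TMM-scaled CPM of the 9 genes in each of the 4 libraries, on a log axis, for the upstream window, the gene body and the downstream window; bars are group means. The Cxcr4 gene body parts the groups most (4.84 and 5.64 against 78.2 and 31.5), and the upstream window of Robo4 is where the knockouts fall furthest below the controls.

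Ordered by density, the genes changed place between the groups. In the controls, Robo4 had the highest upstream density (22.8 CPM per kb), followed by S1pr1 (16), Selplg (13.9), Cxcr4 (12.1), Itga4 (11.8), Cd44 (10.2), Itgb1 (5.41), Itga6 (4.83) and Itgal (4.6). Only Robo4 and S1pr1, Selplg and Cxcr4, and Cd44 and Itgb1 were neighbours whose replicates did not overlap. Robo4 stood above 96.7% of genes there. In the knockouts, Itga4 (38.5), Selplg (37.6) and Cxcr4 (31.5) led with overlapping replicates, S1pr1 (17.8) came next without overlap, and Robo4 (7.82) was next to last, overlapping its neighbours Itgal (9.82) and Itga6 (6.18).

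Gene body densities are relative to gene body totals, so they are not on the scale of the upstream windows. In the controls they ran from 1.79 CPM per kb for Robo4 through Itga6 (1.3), Cxcr4 (1.28), S1pr1 (1.18) and Cd44 (1.16) to Itgb1 (0.627), Itga4 (0.575), Itgal (0.52) and Selplg (0.0467). Robo4 and Itga6, Cxcr4 and S1pr1, Cd44 and Itgb1, and Itgal and Selplg did not overlap. In the knockouts Cxcr4 led at 13.4, with both libraries above S1pr1 (2.45) and Cd44 (2.15). The others held between 0.0336 and 1.29. Downstream, Robo4 (16.7) and Cxcr4 (12) led in the controls and Cxcr4 (23) and Selplg (11.5) in the knockouts, each pair without overlap.

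Most reads of the longest genes lay in the gene body, and the upstream share differed more from gene to gene than between the groups. It was lowest for Itga6 (2.68% to 5.33% over the 4 libraries) and Cd44 (4.65% to 6.13%) and highest for Selplg (66.4% to 83%) and S1pr1 (42% to 48.1%). For Itga4 it was 12.9% and 11.3% in the controls and 31.6% and 15.6% in the knockouts. For Itgb1 it was 8.7% and 9% against 22.5% and 14.9%. In both genes the knockouts were above the controls. For Cxcr4 it was lower in the knockouts (26.7% and 26.1% against 37.4% and 34%), where the gene body took the larger share, and for Robo4 too (19.2% and 27% against 29.8% and 28.7%). The median upstream share over the 9 genes was 12.9% ± 2.28 (SD, n = 2) in the controls and 19.5% ± 5.47 in the knockouts, a difference of 6.6 percentage points (exact two-sided permutation p = 0.333, the smallest possible). Over 24665 genes with at least 10 counts in every library, the difference with all libraries was 3.55 points. Without knockout 1 the difference for the 9 genes was 2.73 points. The medians of all these genes were 18.7% and 19% in the controls and 21.3% in knockout 2.

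**Figure D3:**
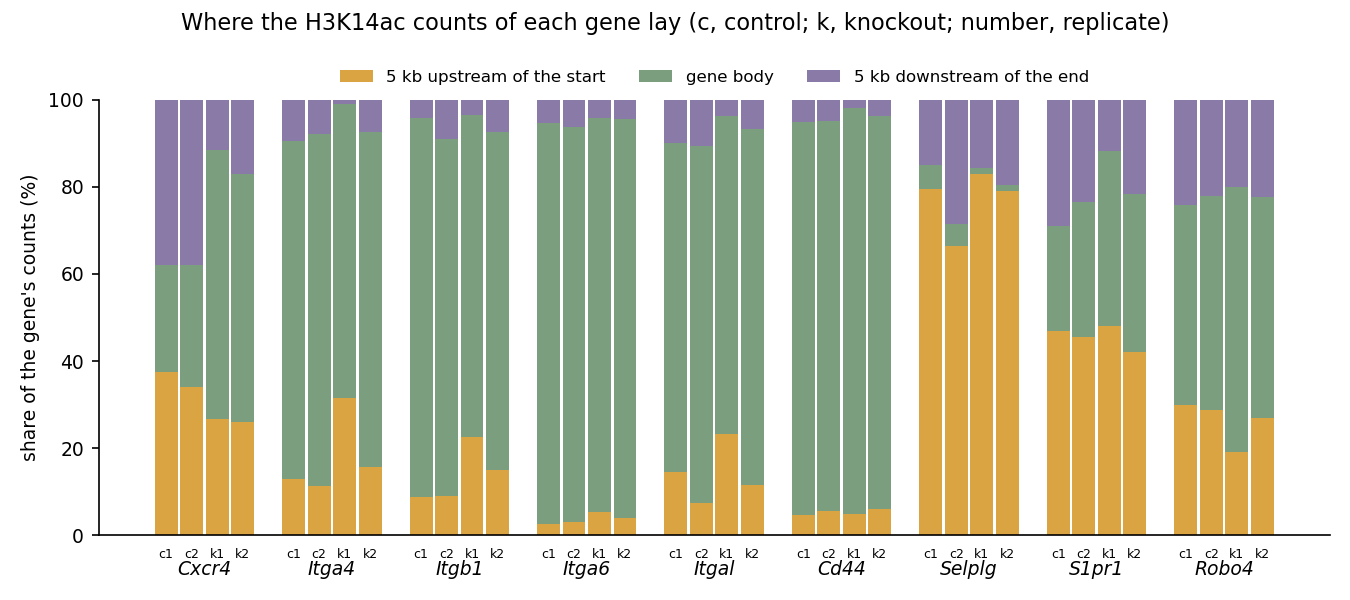
Share of each gene's reads that lay upstream, in the gene body and downstream, as stacked bars for the 4 libraries. The gene body share of Cxcr4 is 24.7% and 28.1% in the controls and 61.8% and 56.9% in the knockouts, and the bars of Itga6 and Cd44 differ little between libraries.

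The wider machinery of homing and adhesion was read from 7 lists of related genes, 89 in all, each without the 9 receptors. Upstream, 27 of 86 tested rose and 6 fell (24% and 14.3% of all genes), with a median log2 fold change of 0.43. The split was 37 higher and none lower with pooled totals, 32 and none with receptor-gene scaling, and 23 and 13 with the GC correction. The medians were then 0.99, 1.41 and 0.18, against 0.46, 0.83 and -0.21 for all genes. None passed without control 1 or control 2 (6 and 10 at an unadjusted p under 0.05 by edgeR), and 7 rose and none fell without knockout 1. Of 13 genes of integrin activation and linkage to actin, 9 rose and none fell (median 1.6). Fermt3, the blood-cell kindlin, held 13 and 13.3 CPM in the controls and 294 and 96.4 in the knockouts (3.88 ± 0.67, adjusted p = 6.2e-07). Tln1, which encodes talin, held 10.4 and 12.4 against 65.9 and 54.3 (2.38 ± 0.49, adjusted p = 3.3e-05). Of 14 genes of chemokine receptor signalling and motility, 10 rose and none fell (median 1.44), among them Was (2.81 ± 0.54, adjusted p = 7e-06) and Vav1 (2.57 ± 0.61, adjusted p = 0.00031), regulators of the actin skeleton. Without knockout 1, 5 of the 13 and 1 of the 14 still rose. Without control 1 or control 2 none did by edgeR's adjusted p, with 3 or 4 of each list at an unadjusted p under 0.05.

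Fewer genes passed among surface partners and receptors than in the 2 lists of integrin activation and chemokine receptor signalling. Of all genes tested upstream, 24% rose and 14.3% fell (38.3% in either direction). Of 12 ligands and counter-receptors, Icam1, a partner of LFA-1, rose upstream (1.78 ± 0.53, adjusted p = 0.00434) and 2 fell, among them the laminin chain gene Lama4 (-1.62 ± 0.56, adjusted p = 0.0141). Of 21 other integrin subunits 1 rose, Itgb2 (1.2 ± 0.46, adjusted p = 0.0291), the beta partner of Itgal, and 1 fell, Itga7 (-1.19 ± 0.49, adjusted p = 0.0412). The medians of these lists, -0.55 and -0.4, turned positive with pooled totals (0.03 and 0.18) and receptor-gene scaling (0.4 and 0.57). The median of all genes was 0.46 and 0.83 with these 2 scalings. Of 14 other homing, retention and adhesion receptors 4 rose and 2 fell, with Cd164, which encodes the sialomucin endolyn (2.06 ± 0.54, adjusted p = 0.00115), among those that rose. Of 8 genes of selectin ligand synthesis 2 rose, Tpst2 (1.71 ± 0.56, adjusted p = 0.0103) and Gcnt1 (1.67 ± 0.59, adjusted p = 0.0174), and 1 fell. Both make enzymes that modify PSGL-1. None of 4 genes of S1P metabolism passed upstream by edgeR (1 had an unadjusted p under 0.05). Without control 1 or control 2 none of the calls on these named genes was kept, and without knockout 1 only that of Icam1 was (1.63). Over these 3 fits the named genes that rose had log2 fold changes from 0.86 (Itgb2) to 2.5 (Cd164), and Lama4 and Itga7 from -1.69 to -0.74. Lama4 and Itga7 also did not pass with pooled totals (-1.08 and -0.65) or receptor-gene scaling (-0.76 and -0.33), nor Itgb2 with library totals (0.98).

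Over gene bodies, 29 of 88 related genes rose and 15 fell (23.1% and 15.2% of all genes), with a median of 0.39. With library totals 38 rose and 4 fell, with pooled totals 33 and 5, with receptor-gene scaling 30 and none, and with the GC correction 20 and 18. Without control 1, control 2 or knockout 1 the counts were 6 and none, 11 and 6, and 10 and 5. Integrin activation and linkage to actin had 8 of 13 higher and 1 lower, and chemokine receptor signalling and motility 7 of 14 higher and none lower. Without control 1, control 2 or knockout 1, 2, 4 and 5 of the 13 and 2, 3 and 2 of the 14 rose, and with the GC correction 4 of the 14. Fermt3 rose by 2.84 ± 0.37 (adjusted p = 7.1e-09) and Pxn, which encodes paxillin, by 1.6 ± 0.31 (adjusted p = 4.4e-05). Grk2, the kinase that turns off CXCR4, rose by 2.64 ± 0.34 (adjusted p = 6.1e-09), and Gnai2, the G protein subunit through which it signals, by 2.12 ± 0.35 (adjusted p = 2.3e-06). Of 5 genes of S1P metabolism 3 rose, with the kinase gene Sphk2 at 1.88 and 2.97 CPM in the controls and 64.4 and 19.5 in the knockouts (4.1 ± 0.45, adjusted p = 4.6e-11). These 5 calls held with each library left out in turn. Their lowest log2 fold changes, without knockout 1, were 1.92, 0.83, 1.70, 1.22 and 3.03.

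The genes that fell over their bodies included 4 of 11 ligands and counter-receptors, 6 of 22 integrin subunits and 4 of 15 other receptors, against 2, 1 and 5 that rose (15.2% and 23.1% of all genes). Without control 1 none of these fell. There were 2, 1 and 3 that fell without control 2, and 1, 1 and 3 without knockout 1. With library totals 1, 1 and 2 fell, and with pooled totals 1, 1 and 3. Slit2, which encodes a ligand of ROBO receptors, fell by 1.24 on the log2 scale (SE 0.32, adjusted p = 0.00159), and Robo1 by 1.48 (SE 0.32, adjusted p = 0.00018). Lama5 (-0.97 ± 0.3, adjusted p = 0.00752) and Itga7 (-1.25 ± 0.32, adjusted p = 0.00146) fell too. Without control 1 none of these 4 was kept (-0.92 for Slit2, -1.04 for Robo1, -0.59 for Lama5 and -0.90 for Itga7), and without knockout 1 Slit2 was not (-0.83). With receptor-gene scaling no gene of the lists fell over its body, and the 4 stood at -0.61, -0.83, -0.31 and -0.62. Itgb2, in contrast, rose by 1.44 ± 0.32 (adjusted p = 0.00027), though not without knockout 1 (0.55). Cd164 (1.57 ± 0.39, adjusted p = 0.0012) rose as it did upstream, but not without control 1 (1.48). Downstream, 19 of 82 related genes rose and 2 fell (10.8% and 2.29% of all genes), with a median of 0.16. Without control 1, 5 rose and none fell, and without control 2, 10 rose and 2 fell.

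**Figure D4:**
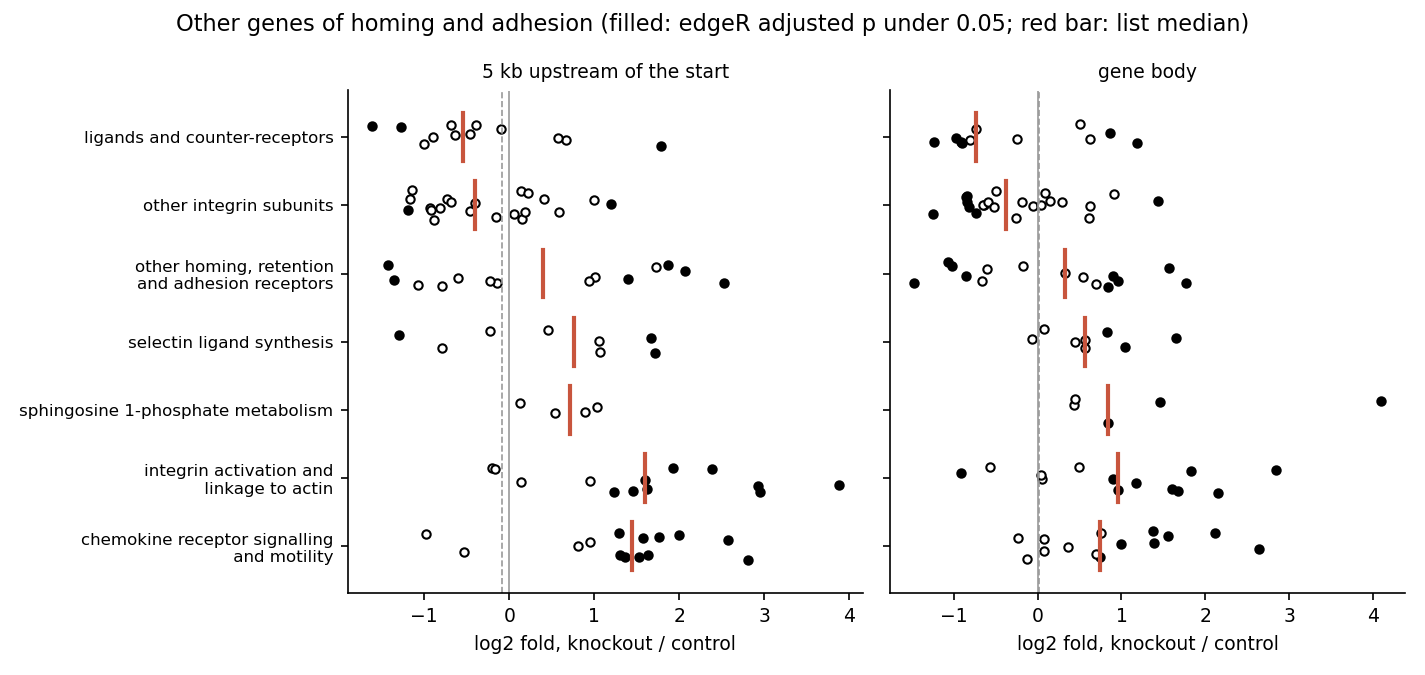
Log2 fold change of each gene in the 7 related lists, upstream and over the gene body; filled points passed the test, red bars are list medians and the dashed line is the median of all genes tested. Upstream, the lists of integrin activation (median 1.6) and chemokine receptor signalling (1.44) sit highest, and the ligands (-0.55) lowest. Over gene bodies integrin activation (0.96) and S1P metabolism (0.84) sit highest, and the ligands (-0.73) lowest.

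For 8 of the 9 genes, the gene nearest in its 12 log2 CPM values (4 libraries and 3 regions) was sought among 15141 genes by Euclidean distance; Selplg was not tested in each region. Nearest to Cxcr4 was Btg2 (distance 1.25), to Itga4 St8sia4 (1.51), to Itgb1 B3galnt2 (1.01), to Itga6 Xpo6 (0.76), to Itgal Dzip3 (0.83), to Cd44 Bin1 (1.27), to S1pr1 Cops9 (1.08) and to Robo4 Cldn1 (0.79). Itga4 had the least close neighbour and Itga6 the closest. The libraries are shared by all pairs, so these distances are descriptions only.

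**Figure D5:**
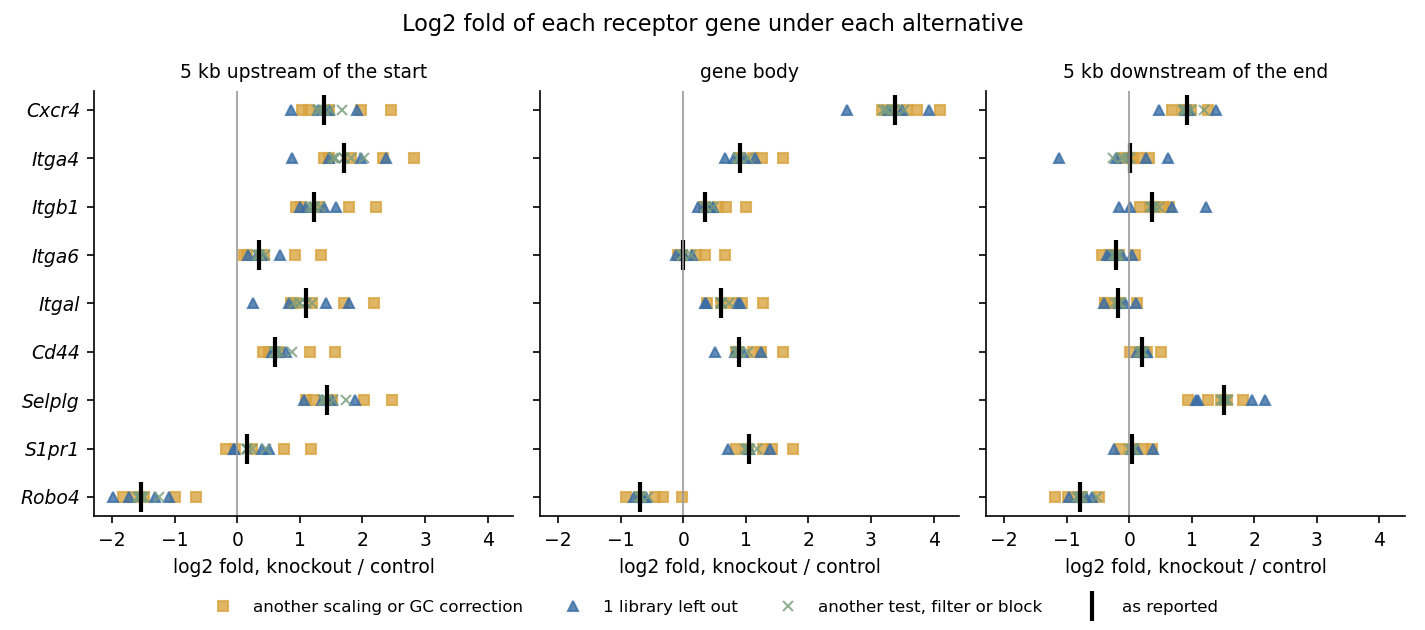
Log2 fold change of each gene under each alternative analysis, by region, with symbols for other scalings and GC correction, for a left-out library, and for another test, filter or block; the black tick is the value reported. The Cxcr4 gene body stays between 2.61 and 4.1, and the S1pr1 upstream window spans 0.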

How the data were processed

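The deposited values are raw read counts, whole numbers per Entrez gene, made by the authors for 4 H3K14ac libraries over 3 region classes, as the file headers name them. The submitters' processing notes name featureCounts and mm10. The aligner, the annotation, read filters, duplicates and spike-in are not given in the sources used here. Series tables and per-library files agreed in all of 326148 values (0 differed). Symbols (25275 of 27179 genes), positions and promoters came from RefSeq on GRCm38.p6.

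Each region class was fitted whole with edgeR 4.0.16 in R 4.3.3: filterByExpr (minimum count 10, minimum total 15), TMM scaling, quasi-likelihood F-test, no covariate, Benjamini-Hochberg adjustment, threshold 0.05. The SE is the size of the log2 fold change over the square root of F. The fit was run on simulated data with a common dispersion and few changed genes, as many up as down. That setting cannot check the scaling or the error rate in these data, where many genes passed. Alternatives were 4 scalings, 3 tests (DESeq2 1.42.0, limma 3.58.1 and another quasi-likelihood variant), 2 filters, each library left out and a replicate block. A GC correction (loess span 0.3) and a crossed block were chosen after seeing the data. The crossed block was run because deviations of same-numbered libraries from their group means were negatively correlated. It takes out the spread it was chosen for, so a pass with it adds no separate support. Shares, distances and plots were made in Python 3.11.15 with matplotlib 3.10.9, scipy 1.17.1, pandas 2.3.3 and numpy 2.4.6.

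The 9 genes and the related lists were chosen with earlier results of these data known. Named list genes are the 2 with the smallest p per list upstream and over the gene body; each gene's nearest gene, Kat7 and overlapping genes were added. One gene that this rule names is not reported here.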

Additional observations from a re-analysis of the deposited data

How the results depend on the processing

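Upstream, 4 of the 9 genes passed. With the replicate block 0 passed (18.8% of all genes), with 2 at an unadjusted p under 0.05 by edgeR. Counts were 2 with library totals (35.9% of all genes) and 1 with the GC correction (42.2%). With 1 library left out they ran from 0 to 6: 0 without control 1, control 2 or knockout 1 (0, 0 and 5 at an unadjusted p under 0.05), when 0.306%, 3.75% and 5.69% of all genes passed, and 6 without knockout 2 (48%). Over gene bodies, 3 of 8 passed (38.3% of all genes), against 1 with the replicate block (17.2%) and 5 with the crossed block (56.3%). With 1 library left out, the median log2 fold change of these genes ran from 0.43 without knockout 1 to 1.02 without knockout 2. Downstream, 1 passed, against 0 with library totals, receptor-gene scaling, the DESeq2 Wald test, limma-trend, no filter or a mean count of at least 50 (2 tested), where 2, 2, 1, 3, 2 and 1 had an unadjusted p under 0.05, and 0 to 2 with 1 library left out. The cause was not tested. Deviations of same-numbered libraries from their group means had correlations of -0.284, -0.359 and -0.22. With 1 such contrast in each group, these values cannot show whether the replicate number is a pairing from the design. With the replicate block, Itga4, Itgb1, Itgal and Robo4 no longer passed upstream, nor Itga4 and Cd44 over gene bodies. The difference in median upstream share was 2.73 to 10.5 points with 1 library left out.

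Directions turned only where the gene did not pass in that region. S1pr1 upstream stood at -0.04 with library totals, -0.18 with the GC correction and -0.06 to 0.50 with 1 library left out. The Itga6 gene body stood at 0.34 with library totals, 0.21 with pooled totals and 0.66 with receptor-gene scaling. It was 0.0015 with no filter, 0.12 with a mean count of at least 50, and -0.12 to 0.14 with 1 library left out. Itga4 downstream stood at -0.11 with library totals, -0.0027 with the later quasi-likelihood variant, -0.26 with limma-trend and -0.03 with no filter. It was -0.12 with the replicate block, -0.10 with the crossed block, and -1.12 to 0.62 with 1 library left out. Itgb1 downstream ran from -0.16 to 1.22 with 1 library left out. Downstream, receptor-gene scaling gave 0.10 for Itga6 and 0.12 for Itgal (-0.36 to 0.05 and -0.41 to 0.11 with 1 library left out), and S1pr1 stood at -0.14 with library totals, -0.01 with no filter and -0.24 to 0.38 with 1 library left out. Over all alternatives, 310 log2 fold changes of the 9 genes kept direction and side of the threshold, 25 newly passed, 44 no longer passed and 27 turned. Receptor-gene scaling moved the median of all genes to 0.83 upstream, 0.67 over gene bodies and 0.27 downstream, pooled totals to 0.46, 0.24 and -0.04, and library totals to -0.27, 0.36 and -0.23. Low counts limit the windows of 5 kb, and Selplg's gene body could not be tested.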
